A study of Mus musculus with 70 samples.

Results

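Keratin genes encode the intermediate filament proteins of epithelial cells, and 9 of them (Krt5, Krt7, Krt8, Krt14, Krt18, Krt19, Krt20, Krt23 and Krt80) were followed while cells of the mouse renal adenocarcinoma line RENCA were passaged repeatedly in mice. The members were a named list, each found on the array through the transcript that its non-control probe is assigned to, and they made up 9 of 21388 named genes. Of these genes 8 had 1 probe and Krt5 had 2, of which the brighter was used. The arrays, which were single-colour Agilent mouse arrays, measured 65 RNA samples in 19 groups. All groups descend from GFP-expressing RENCA cells, here called P0 before any implantation (n = 2), and every host was a wild type BALB/c mouse, which the study's methods give as female. Kidney Primary Tumor lines (KPT) were recovered from the kidney after sub-capsular injection, with 5, 2, 2, 3, 5 and 5 samples at P1 to P6. Kidney-to-Lung-Metastases lines (K-LM) were recovered from the lungs after that same kidney injection, with 1, 1, 5, 3, 4 and 3 samples. Tail-to-Lung-Metastases lines (T-LM) were recovered from the lungs after injection into the tail vein, with 5, 2, 3, 4, 6 and 4 samples. The T-LM P1 sample titled LOT1 was placed there from its other labels. As a model, the series rests on 1 tumor line that is wild type for Vhl. The study's methods describe culture of each explant until host cells without GFP were no longer seen, whereas the labels describe homogenised samples. Nothing in the labels says that the samples of a group came from separate animals, so that p-values measure only the spread between these samples.

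Keratin filaments are built from obligate pairs of an acidic type I chain (here Krt14, Krt18, Krt19, Krt20 and Krt23) and a basic type II chain (Krt5, Krt7, Krt8 and Krt80). Krt8 and Krt18 are the founding pair of simple epithelia, the renal tubule included. Krt7 and Krt19 are typical of ducts, collecting duct, urothelium and lung epithelium, Krt20 of intestinal and urothelial surface cells, and Krt5 with Krt14 of the basal layer of stratified epithelia. Antibodies against several of these chains are used in pathology to tell carcinomas apart.

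The stretch just before the start of the gene is shown for Krt20 and Krt23, which were higher at P6 than at P0, for Krt7, which differed between the lung routes, and for Krt18, which stayed near its P0 level. RefSeq windows on build GRCm38.p6 were found for 7 of the 9 members, all but Krt19 and Krt80. The windows are chr11:99438154-99438403 (minus strand) for Krt20, chr11:99493121-99493370 (minus strand) for Krt23, chr15:101412153-101412402 (plus strand) for Krt7 and chr15:102027966-102028215 (plus strand) for Krt18. Each line gives the 250 bases before the annotated start, 5′ to 3′ along the strand of the gene. Capitals mark the TATA-like element ATAAAA and the GC box GGGCGG, each on either strand (TTTTAT and CCGCCC).
Krt20: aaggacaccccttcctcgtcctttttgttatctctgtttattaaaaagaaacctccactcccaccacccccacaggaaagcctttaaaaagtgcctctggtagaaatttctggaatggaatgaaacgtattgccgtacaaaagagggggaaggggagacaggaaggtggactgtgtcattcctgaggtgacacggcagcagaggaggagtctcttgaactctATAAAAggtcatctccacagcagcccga
Krt23: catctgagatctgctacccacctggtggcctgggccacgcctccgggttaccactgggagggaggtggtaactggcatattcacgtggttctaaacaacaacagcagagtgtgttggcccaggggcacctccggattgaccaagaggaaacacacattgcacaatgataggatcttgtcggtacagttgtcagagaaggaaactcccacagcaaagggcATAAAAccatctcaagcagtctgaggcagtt
Krt7: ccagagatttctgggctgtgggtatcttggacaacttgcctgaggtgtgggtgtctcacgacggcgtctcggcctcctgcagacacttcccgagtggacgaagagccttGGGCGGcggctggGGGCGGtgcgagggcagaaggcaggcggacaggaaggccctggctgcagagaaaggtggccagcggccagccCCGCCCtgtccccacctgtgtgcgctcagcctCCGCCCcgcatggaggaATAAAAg
Krt18: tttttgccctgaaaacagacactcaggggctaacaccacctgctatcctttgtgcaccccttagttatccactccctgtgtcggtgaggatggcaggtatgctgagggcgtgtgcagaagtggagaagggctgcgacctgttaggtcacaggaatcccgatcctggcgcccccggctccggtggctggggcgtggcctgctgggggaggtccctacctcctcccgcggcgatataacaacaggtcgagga

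The element ATAAAA, which was picked after these sequences had been read, lay in 4 of the 7 members' windows, against 16.85% of 32536 windows of the same length. It began 28 bases before the start of Krt20, 31 before Krt23, 29 before Krt5 and 7 before Krt7. The GC box lay in the window of Krt7, at 141, 128, 56 and 24 bases before its start, in no other member's window, and in 32.97% of all windows. The AP-1 sequence TGANTCA was in 0 of the 7 windows and in 6.73% of all windows. These matches are a description of the letters and were not tested against the levels.

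All levels below are log2 processed signals minus the 75th percentile of the same array, taken over the 11289 probes well above background on all 70 arrays. A level follows 1 probe across samples, and levels of different genes are not comparable with each other. On each array, between 25.1% and 55.1% of the probes were well above background by the scanner software's own test. The arrays of K-LM P6 all lay on a late slide, which also held repeat arrays of 5 RNA samples from P0 and KPT P6. These repeats, which estimate the shift of that slide, differed from the earlier arrays of the same RNA by -1.37 to 0.22 for Krt20, -0.55 to -0.20 for Krt19 and -0.96 to 0.55 for Krt7 (log2, late minus first). Printed levels average both arrays of such a sample while the KPT and T-LM passage fits use the first, so that their fitted changes differ from differences of means (for Krt20 in KPT P6 against P0, a fitted 5.91 against 6.49). The lowest shifts of Krt20 and Krt7 came from P0 RNA, in which neither gene was well above background on any array. Of 9 markers of renal tubular epithelium, Pax8 was well above background in all 65 samples, whereas Pax2 was well above background in none. Between 2 and 3 of the 9 were well above background in a P0 sample. The number was 2 to 4 at KPT P6, 2 to 5 at T-LM P6 and 1 to 2 at K-LM P6. The adhesion gene Cdh1 was well above background in the 4 T-LM P6 samples and in 3 samples of P1.

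Krt19 and Krt20 were higher at P6 than at P0 in all 3 routes, Krt7 rose in the tail vein route and was not well above background in any of the 17 K-LM samples, and Krt8 and Krt18 passed no test of passage. By limma at an adjusted p of 0.01 or less, 3 of 7 members tested were called in KPT P6 against P0, when 3.88% of all probes tested were. The tail vein route had 5 of 9 called (7.31% of all probes) and K-LM had 3 of 7 (5.54%). All of these calls were higher at P6. They include Krt7 in K-LM, which was not well above background in K-LM P6 or P0. With a floor under dim signals the changes of Krt7 in K-LM, Krt14 in T-LM and Krt23 in KPT and T-LM were negative. The median log2 change over the members tested was 1.63, 1.23 and 1.44, against -0.01, 0.00 and 0.00 over all probes. Members pass the filter through the groups in which they are high, so that these medians describe only the members tested. From P3 to P6, KPT had 0 of 7 members called (0.715% of all probes; 3 at an unadjusted p under 0.05). T-LM had 4 of 9 (7%), and K-LM had 3 of 7 (5.88%), again with Krt7 not well above background in either group. At P5 the counts were 1 of 7 (5.42%), 2 of 7 (7.4%) and 1 of 7 (3.42%), in the order T-LM against KPT, K-LM against KPT and K-LM against T-LM. At P6, 3 of 8 were called for T-LM against KPT (11.5%), 2 of 8 for K-LM against KPT (16%) and 2 of 8 for K-LM against T-LM (11.9%). The comparisons with P0 share the same 2 P0 samples.

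**Figure D1:**
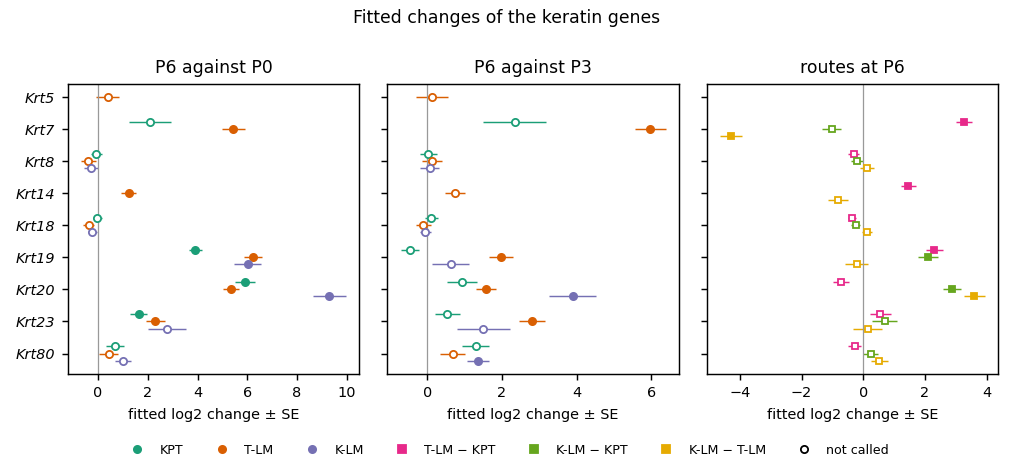
Fitted log2 changes of the keratin genes with their standard errors from limma, for P6 against P0 and P6 against P3 within each route and for the routes against each other at P6. Filled points passed an adjusted p of 0.01, and comparisons in which neither group had a sample well above background are not drawn. Krt19 and Krt20 lie to the right of 0 at P6 against P0 in every route, and the filled points of Krt7 are those of comparisons with T-LM P6.

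The founding pair stayed near its P0 level. Krt18, the type I chain of simple epithelium, had levels of 3.81 and 4.05 in the P0 samples, and its group means ran from 3.15 in K-LM P1 to 4.24 in KPT P5. Krt8, its type II partner, had levels of 1.66 and 1.81 at P0 and group means from 1.18 in KPT P2 to 1.74 at P0. Both were well above background in all 65 samples. At P6 against P0, Krt18 changed by -0.03 ± 0.18 (SE) for KPT, by -0.38 ± 0.22 for T-LM and by -0.23 ± 0.17 for K-LM, with limma adjusted p of 0.964, 0.351 and 0.509. The matching values for Krt8 were -0.08 ± 0.22, -0.39 ± 0.29 and -0.27 ± 0.27, with limma adjusted p of 0.907, 0.494 and 0.653. These tests did not detect a change, and they do not show that there was none.

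A lower Krt18 in the lung lines was called once. The 4 K-LM P5 samples read 3.38, 3.48, 3.46 and 3.56, and the 5 KPT P5 samples 4.15, 4.18, 4.31, 4.11 and 4.46, so that the groups did not overlap. The difference was -0.77 ± 0.16 (limma adjusted p = 0.00412), or 1.71-fold lower in K-LM. This call was lost (adjusted p from 0.011 to 0.0148) when any K-LM P5 sample or KPT P5 replicate 3 or 5 was left out. It was also lost with the slide as a fixed term (adjusted p = 0.0323), without a filter (0.0366) and with the replicate number as a block (0.0159). Scaling to the 75th percentile over all probes lost it too (-0.67, adjusted p = 0.0305). At T-LM P1 against P0 the change of -0.76 ± 0.22 was not called (limma adjusted p = 0.0344). Across the 65 samples the levels of Krt8 and Krt18 had a Pearson correlation of 0.10, which is a description over samples that share slides and passages.

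Krt19, the smallest type I keratin and a marker of ductal and progenitor cells, was near background before implantation and above it in every line that had been through a mouse. The P0 samples read -7.12 and -8.25. Of their 4 arrays 1 was well above background, the late repeat of replicate 1, and neither first array was. All 63 passaged samples were well above background. At P1 the KPT samples already read -5.35, -5.08, -3.17, -1.78 and -2.44, and the T-LM samples -3.64, -4.76, -5.30, -4.91 and, for LOT1, -5.15. All 10 lay above both P0 samples. The change from P0 to P1 was 3.93 ± 0.63 in KPT (limma adjusted p = 0.000627, at least 5.25-fold) and 2.74 ± 0.40 after tail vein injection (adjusted p = 0.000204, at least 2.30-fold). "At least" is used where 1 of the groups was not well above background on any array of the fit, and sets the brighter group against the dimmest detectable signal. At P1 against P0, 2 of 7 members were called in KPT (4.41% of all probes) and 2 of 9 in T-LM (2.56%), where the median of all probes moved by 0.14. With a floor under dim signals the Krt19 changes were 1.85 and 0.66 and no longer called (adjusted p = 0.0721 and 0.221). Without P0 replicate 2 the calls were lost too, at 3.45 (adjusted p = 0.0313) and 2.26 (adjusted p = 0.0323). With only P0 and P1 in the fit, 0 members were called by limma in either route, and 0 in T-LM with the slide as a fixed term. The share of all probes called in these fits is not given, so these counts are not read as a result about the keratins.

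Later passages separated the routes for Krt19. In KPT the P3 samples read -3.23 and -2.99 and the P6 samples -4.14, -3.58, -3.43, -3.68 and -3.51, so that all 5 were below both P3 samples, but the change of -0.47 was not called (limma adjusted p = 0.274). In T-LM the P3 samples read -2.96, -3.45 and -3.34. The 6 T-LM P5 samples ran from -1.66 to -0.66 with a median of -0.98, and the P6 samples read -1.38, -0.58, -1.31 and -1.83, all above P3. The T-LM change from P3 to P6 was 1.97 ± 0.32 (limma adjusted p = 0.000365, 3.93-fold), and that from P1 to P6 was 3.48 ± 0.32 (adjusted p = 9.81e-08, 11.1-fold). In K-LM the P3 samples were spread from -3.33 to -0.77 and the P6 samples read -1.82, -2.45 and -1.25, within the range of P3 (change 0.62, limma adjusted p = 0.395).

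Over the full series Krt19 was at least 5.20-fold higher at P6 than at P0 in KPT (3.92 ± 0.25, limma adjusted p = 1.6e-08) and at least 25.6-fold higher in the tail vein route (6.22 ± 0.37, adjusted p = 9.72e-10). In K-LM, where the fit includes the repeat arrays and thus the 1 P0 array well above background, it was 64.8-fold higher (6.02 ± 0.54, adjusted p = 2.08e-08). With a floor under dim signals these changes fell to 1.84, 4.14 and 4.56 and were still called. The P6 means were -3.67 ± 0.28 (SD, n = 5), -1.28 ± 0.52 (n = 4) and -1.84 ± 0.60 (n = 3). Every lung sample of P6 lay above every KPT P6 sample. Krt19 was 4.91-fold higher in T-LM than in KPT at P6 (2.30 ± 0.27, limma adjusted p = 7.86e-06) and 4.26-fold higher in K-LM (2.09 ± 0.32, adjusted p = 0.000118). With the slide as a fixed term, the T-LM difference of 2.31 was no longer called (adjusted p = 0.0159). At P5 the same order held, with T-LM 3.12-fold (1.64 ± 0.21, adjusted p = 0.000397) and K-LM 2.59-fold (1.37 ± 0.24, adjusted p = 0.00142) above KPT. The lung lines did not differ detectably from each other at P6 (K-LM minus T-LM -0.21, limma adjusted p = 0.742). The difference between T-LM and KPT in the change from P3 to P6 was 2.44 and was not called (adjusted p = 0.0329).

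**Figure D2:**
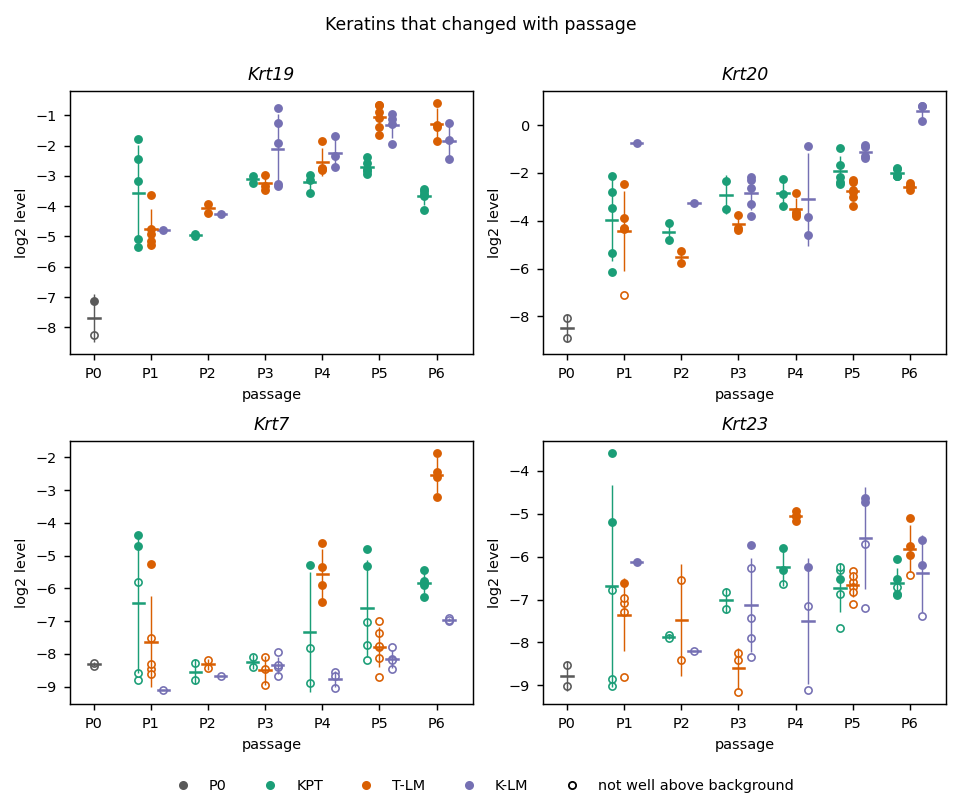
Levels of Krt19, Krt20, Krt7 and Krt23 by passage and route, as log2 processed signal relative to the 75th percentile of the array. Each point is an RNA sample, filled where the probe was well above background and open where it was not, dashes are group means and bars are SD. Krt19 ends highest in the lung routes, Krt20 highest in K-LM and Krt7 highest in T-LM.

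Krt20, a type I chain best known from intestinal epithelium and the umbrella cells of urothelium, went from background at P0 to well above background in nearly all passaged lines. Neither P0 sample was well above background (-8.90 and -8.08), whereas 62 of the 63 passaged samples were, all but LOT1 at -7.10. At P1 the KPT samples read -5.37, -6.13, -3.49, -2.80 and -2.11, and the other T-LM samples -4.31, -4.33, -3.88 and -2.47. The change from P0 to P1 was 3.93 ± 0.74 in KPT (at least 3.93-fold, limma adjusted p = 0.00204) and 3.49 ± 0.66 after tail vein injection (at least 2.90-fold, adjusted p = 0.00227). Both calls were lost without either P0 sample, with adjusted p of 0.0515 and 0.0247 in KPT and 0.0628 and 0.0359 in T-LM. The only K-LM P1 sample read -0.73, above every other sample of P1 to P4.

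By P6 the order of the routes for Krt20 was K-LM, then KPT, then T-LM. The K-LM P6 samples read 0.79, 0.17 and 0.79, the KPT P6 samples -2.12, -1.83, -1.80, -2.11 and -2.15, and the T-LM P6 samples -2.42, -2.56, -2.56 and -2.72. None of the 3 ranges overlapped. Against P0 the rise was at least 15.5-fold for KPT (5.91 ± 0.40, limma adjusted p = 3.7e-08), at least 10.5-fold for T-LM (5.34 ± 0.31, adjusted p = 7.62e-10) and at least 151-fold for K-LM (9.30 ± 0.67, adjusted p = 6.23e-10). Krt20 was 7.36-fold higher in K-LM than in KPT (2.88 ± 0.30, limma adjusted p = 2.24e-06) and 12.1-fold higher than in T-LM (3.59 ± 0.35, adjusted p = 1.48e-06). T-LM and KPT differed by -0.72, which was not called (adjusted p = 0.0606). All K-LM P6 arrays lay on the late slide, whose term in the fit rests on the 5 repeated RNA samples. For Krt20 the P0 repeats, not well above background on any array, shifted by -1.37 and -0.97. The KPT P6 repeats, all well above background, shifted by -0.25 to 0.22. The slide term thus includes shifts of undetected signal. Differences of the printed means were smaller than the fitted ones, at 2.58 against KPT and 3.15 against T-LM.

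The separation of Krt20 in K-LM was late. The K-LM P3 samples read -2.64, -2.16, -3.81, -3.32 and -2.30, the P4 samples -4.58, -3.85 and -0.88, and the P5 samples -1.36, -0.91, -1.30 and -0.84. From P3 to P6 Krt20 rose 14.8-fold in K-LM (3.89 ± 0.62, limma adjusted p = 0.000319) and 2.99-fold in T-LM (1.58 ± 0.27, adjusted p = 0.000595). For K-LM, whose fit holds the late slide term, the difference of the printed means was 3.43. In KPT, where the P3 samples read -2.34 and -3.50, the change of 0.92 was not called (adjusted p = 0.185). The change in K-LM exceeded that in KPT by 2.82 ± 0.58 (limma adjusted p = 0.0064), and this difference was called for 1 of 8 members (1.08% of all probes). It was lost without KPT P3 replicate 1 (2.25, adjusted p = 0.114), without K-LM P6 replicate 1 or 3 and without KPT P6 replicate 1, 2, 4 or 5 (adjusted p from 0.0101 to 0.0212), and with the slide as a fixed term (2.64, adjusted p = 0.0149). The excess over T-LM of 2.31 was not called (adjusted p = 0.0138). At P5, before the late slide, Krt20 was 3.13-fold higher in K-LM than in T-LM (1.65 ± 0.28, limma adjusted p = 0.00284), a call lost without K-LM P5 replicate 3 or 6 (adjusted p = 0.012 and 0.0141). It was also lost with the slide as a fixed term (2.11, adjusted p = 0.0102). With an RNA index (long minus ribosomal protein mRNAs) as a covariate it was lost too (1.46, adjusted p = 0.0219). This index was -9.93 to -9.04 in K-LM P5 and -9.38 to -8.06 in T-LM P5.

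Krt23, a type I chain of low abundance found in digestive and other glandular epithelia, was detected in 23 of 65 samples and in neither P0 sample (-9.03 and -8.54). At KPT P6 the samples read -6.89, -6.06, -6.52, -6.86 and -6.71, of which 3 were well above background. At T-LM P6 they read -5.97, -5.74, -5.10 and -6.43, of which 3 were. Against P0 the change was 1.63 ± 0.33 in KPT (limma adjusted p = 0.00434, with no fold because the mean signal did not exceed the detection bound) and 2.31 ± 0.40 for T-LM (at least 1.11-fold, adjusted p = 0.000507). The KPT call was lost without KPT P6 replicate 2 (adjusted p = 0.0102) or either P0 sample (0.098 and 0.0335), and the T-LM call without P0 replicate 1 (2.16, adjusted p = 0.0183). Both changes were negative with a floor under dim signals. In K-LM the change of 2.77 ± 0.77 was not called (adjusted p = 0.0209).

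The T-LM route did not move evenly in Krt23. Arrays at T-LM P5 were dimmer (25.1% to 32.2% of probes well above background, against 31.1% to 36.1% at T-LM P4). The part of this in the detection of Krt23 was not tested. All 4 samples of T-LM P4 were well above background, at -5.17, -5.06, -4.93 and -5.05, whereas none of the 6 at T-LM P5 was, with levels from -7.09 to -6.32 and a median of -6.65. At P3 the levels were -8.25, -9.16 and -8.41, none well above background, and the rise to P6 was at least 1.66-fold (2.80 ± 0.35, limma adjusted p = 2.72e-05). Against P1, where 1 of 5 samples was well above background, the change was 1.54 ± 0.37 (adjusted p = 0.00585), or 0.65 and not called with the floor (adjusted p = 0.0777), a call also lost without T-LM P1 replicate 5 or LOT1 or T-LM P6 replicate 1, 2 or 3 (adjusted p from 0.011 to 0.0282). In KPT P1 the samples spread from -9.03 to -3.57, the widest range of any KPT group for this gene.

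Krt7, the type II chain that pairs with Krt19 in ducts, urothelium and lung epithelium, was the member with the widest difference between the lung routes at P6. It was not well above background at P0 (-8.36 and -8.27) and was well above background in 19 of 65 samples. At T-LM P6 the samples read -2.60, -1.86, -2.46 and -3.22, at KPT P6 -6.28, -5.43, -5.89, -5.79 and -5.83, and at K-LM P6 -7.00, -6.90 and -6.98, the last without a sample well above background. The 3 groups did not overlap, although the change of K-LM against KPT of -1.02 ± 0.30 was not called (limma adjusted p = 0.0178). Krt7 at T-LM P6 was at least 10.7-fold above P0 (5.44 ± 0.47, limma adjusted p = 1.24e-07), 9.55-fold above KPT P6 (3.26 ± 0.26, adjusted p = 7.24e-08) and at least 21.4-fold above K-LM P6 (the change of K-LM against T-LM was -4.28 ± 0.35, adjusted p = 2.48e-07). In KPT the change from P0 of 2.08 ± 0.84 was not called (adjusted p = 0.182), although all 5 KPT P6 samples lay above both P0 samples. The K-LM values passed the test against P0 (adjusted p = 0.00498) and P3 (adjusted p = 0.00215), but no sample of these groups was well above background, so no fold is given. The first of these was lost without any 1 of the 5 samples involved (adjusted p from 0.0185 to 0.0761) and the second without any K-LM P6 sample (0.0103 to 0.0129).

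The tail vein route had dimmer arrays at P5 (25.1% to 32.2% of probes well above background) than at P4 and P6 (31.1% to 37.2%). Detection of Krt7 came and went along this route, and the part of array brightness in this was not tested. Of 5 samples at T-LM P1, 1 was well above background (replicate 2, at -5.25, on the array with 55.1% of all probes well above background), none was at P2 or P3 (-8.96 to -8.09), all 4 were at P4 (-6.42, -4.63, -5.34 and -5.91), none of 6 was at P5 (-8.71 to -7.00, median -7.78) and all 4 were at P6. The rise from P3 to P6 was at least 16.0-fold (5.97 ± 0.41, limma adjusted p = 2.42e-08) and that from P1, with 1 of 5 samples well above background, to P6 was 5.09 ± 0.52 (adjusted p = 4.01e-07), or 3.51 with a floor under dim signals. From P1 to P6, 3 of 9 members were called in T-LM (9.28% of all probes) and 0 of 7 in KPT (11.6%; 2 at an unadjusted p under 0.05). The T-LM change from P3 to P6 exceeded that of KPT by 3.53 ± 0.47 (limma adjusted p = 3.6e-05; 2.25% of all probes called) and that of K-LM too (K-LM minus T-LM -4.43 ± 0.46, adjusted p = 5.81e-07; 2.98% of all probes). Each of these differences was called for 1 of 8 members. In KPT the gene was well above background in 2 of 5 samples at P1, in none at P2 and P3, in 1 of 3 at P4, in 2 of 5 at P5 and in 5 of 5 at P6.

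Samples with Krt7 differed in which other epithelial transcripts they also carried. Of the 19 RNA samples with Krt7 well above background, 19 had Lsr (a tricellular junction receptor), 18 had Cldn7 (a tight junction claudin), 11 had Mal2 (an apical transport protein), 7 had Cdh1 (E-cadherin), 5 had Epcam, and 7 each had Sftpc and Sftpd, the surfactant proteins of alveolar type II cells. Of the 46 samples without Krt7, 2 had Cldn7, 1 had Lsr and none had any of the others. Mal2 and Lsr are among the 3 genes that correlate best with Krt7 over these same samples (0.93 and 0.92). Their overlap with Krt7 follows from that and is no separate support. In T-LM P6, Sftpc levels ran from -3.95 to -0.88, and Sftpc was 5.36 ± 0.89 and Sftpd 3.43 ± 0.44 above P0 (log2). Of the alveolar and airway markers, 10 on the array, 4 of 7 tested were called higher in T-LM P6 than in P0 (5.9% of all probes). The other 2 were Ager (2.62) and Foxj1 (1.88), while Nkx2-1 and Scgb3a2 were never well above background. Between 4 and 7 of these markers were well above background in a T-LM P6 sample. The number was 1 to 2 at P0, 2 to 3 at KPT P6, 1 to 2 at T-LM P5 (on dimmer arrays) and 2 at K-LM P6. The summed level of these markers ran from -1.70 to -0.16 in T-LM P6, from -2.86 to -2.41 in KPT P6 and from -2.17 to -1.88 in K-LM P6. The part of lung epithelial RNA in the Krt7 result was not tested, and more such cells and more RNA per cell cannot be told apart. The 2 KPT P1 samples with Krt7 (replicates 4 and 5) had Cdh1 at -5.48 and -5.59, while Sftpc was not well above background in any KPT P1 sample.

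**Figure D3:**
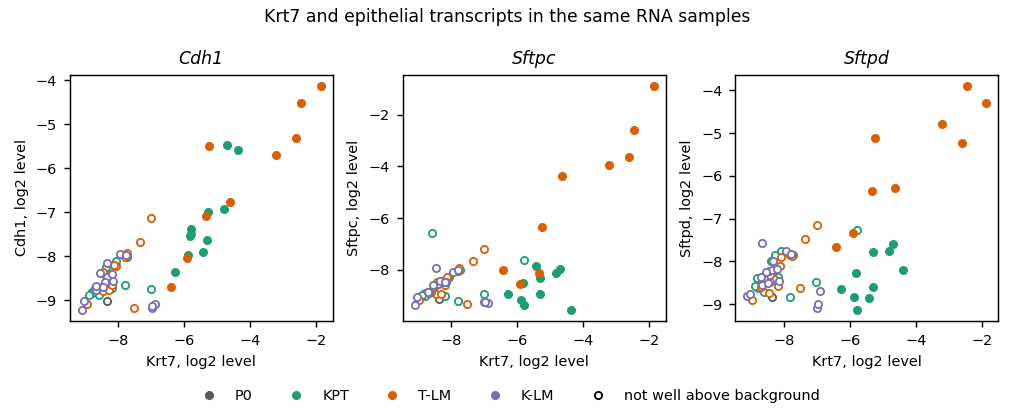
Level of Krt7 against the levels of Cdh1, Sftpc and Sftpd in the 65 RNA samples, in log2 relative to the 75th percentile of the array, with points filled where Krt7 was well above background. T-LM P6 samples stand at the upper right for all 3 genes, and samples without Krt7 have none of the 3 well above background.

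Markers of some other cell types moved with the same comparisons. Whether host or tumor cells carried these transcripts was not tested. Of fibroblast markers 10 were listed, with Dpt never well above background. Of these, 2 of 8 tested were called higher for KPT (3.4% of all probes), 6 of 9 for T-LM (5.9%) and 5 of 9 for K-LM (4.1%). Their summed level ran from -4.48 to -4.35 at P0, -0.76 to 0.39 at KPT P6, 1.23 to 3.00 at T-LM P6 and 0.18 to 1.79 at K-LM P6. Of 13 macrophage and leukocyte markers, 1 of 13, 5 of 13 and 1 of 10 tested were called higher, and their summed level ran from 1.37 to 1.59 at P0 and from 1.76 to 2.51 over the P6 samples. At P6, 6 of 11 of them were called higher (6.98% of all probes) and 1 lower (4.53%) in T-LM than in KPT. In K-LM 7 of 11 were called lower than in T-LM (7.7%). Of mesothelial markers, 7 on the array with Gpm6a, Bnc1 and Calb2 never well above background, 1 of 2 tested was called higher at P6 than at P0 in KPT (Msln 3.34) and 2 of 2 in each lung route (Msln 4.54 and Wt1 4.24 in T-LM, Msln 3.01 and Wt1 5.10 in K-LM). Their summed level ran from -3.40 to -3.22 at P0, -0.41 to -0.21 at KPT P6, 0.85 to 1.23 at T-LM P6 and -0.52 to -0.03 at K-LM P6, and both were called higher in T-LM P6 than in KPT P6. Endothelial markers summed to -1.34 to -1.19 at P0 and -1.80 to -0.81 over the P6 samples. Collecting duct markers summed to -4.05 to -3.90 at P0 and -4.94 to -4.44 at KPT P6. Their sum was -4.65 to -4.45 at T-LM P6 and -3.84 to -3.70 at K-LM P6. Urothelial markers summed to -3.29 to -2.97 at P0 and -2.87 to -2.43 at P6, and proximal tubule markers to -5.16 to -4.72 and -4.49 to -2.76. The part of all these cells in the keratin results was not tested. The level of 17 long mRNAs minus that of 78 ribosomal protein mRNAs, a rough index of RNA integrity, was -7.68 to -7.65 at P0 and -8.28 to -7.22 over the P6 samples. At P3 it was lower, at -9.33 to -9.15 for KPT, -10.0 to -7.75 for T-LM and -10.2 to -8.25 for K-LM, so that comparisons of P6 with P3 also compare samples of different RNA index. With the index as a covariate the T-LM changes from P3 to P6 were 6.33 for Krt7, 1.88 for Krt19, 1.67 for Krt20 and 2.82 for Krt23, and the K-LM change of Krt20 was 4.38, all still called by limma.

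Krt80, a type II chain that joins filaments near the cell margin of differentiating cells, was well above background in 62 of 65 samples. The P0 samples read -5.67 and -5.14, and group means ran from -5.98 in KPT P2 to -4.17 in K-LM P1. From P3 to P6 it rose 2.55-fold in K-LM (1.35 ± 0.30, limma adjusted p = 0.00513), from -5.04, -6.12, -5.21, -5.78 and -6.27 to -4.72, -4.23 and -4.47, without overlap. With the RNA index as a covariate the change was 1.15 and no longer called (limma adjusted p = 0.107). The call was also lost with the slide as a fixed term (adjusted p = 0.0132), with the deposited series values (0.0107), without a filter (0.0176), with only the groups compared (0.0105) and without K-LM P3 replicate 4 or 5 or any K-LM P6 sample (adjusted p from 0.0107 to 0.0298). The KPT change of 1.29 ± 0.36 was not called (adjusted p = 0.0457). Nor were the changes from P0 to P6 of 0.68 in KPT (adjusted p = 0.348) and 1.00 in K-LM (adjusted p = 0.0527).

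**Figure D4:**
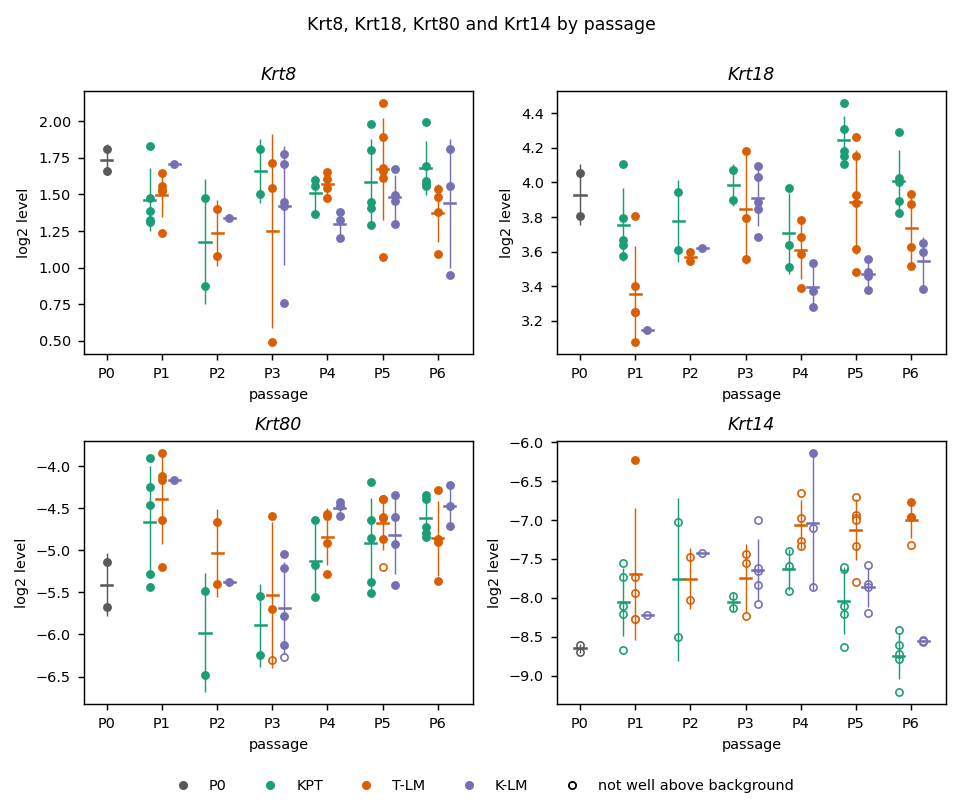
Levels of Krt8, Krt18, Krt80 and Krt14 by passage and route, in log2 relative to the 75th percentile of the array. Points are RNA samples, filled where the probe was well above background, dashes are means and bars are SD. Krt8 and Krt18 are well above background in all 65 samples, and Krt14 in 4.

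The basal pair was close to background throughout. Krt5, the type II chain of basal keratinocytes, was well above background in 5 samples, all of them T-LM (P1 replicates 2 and 4, P4 replicate 4, P5 replicate 6 and P6 replicate 3). A second Krt5 probe was well above background in 1 sample, T-LM P1 replicate 2. Krt14, the type I partner, was well above background in 4 samples, T-LM P1 replicate 2 at -6.23, T-LM P6 replicates 2 and 3 at -6.76 and -6.96, and K-LM P4 replicate 5 at -6.13. Krt14 at T-LM P6 (-6.96, -6.76, -6.96 and -7.32) was called above P0 (1.23 ± 0.30, limma adjusted p = 0.00892) and above KPT P6 (1.46 ± 0.23, adjusted p = 0.000172), with no fold given because its signal did not exceed the detection bound. The call against P0 was lost without P0 replicate 1 (adjusted p = 0.164), P0 replicate 2 (0.0293) or T-LM P6 replicate 1 (0.021), and that against KPT P6 with the slide as a fixed term (1.15, adjusted p = 0.0217). Both differences were negative with a floor under dim signals. Of 10 other basal and squamous markers, Dsg3 and Col17a1 were never well above background. At P6 against P0, 1 of 4 tested was called higher in KPT (Krt17), when 3.4% of all probes were. In T-LM 3 of 4 were (Sprr1a 4.13, Krt17 3.72 and Sbsn 2.62, against 5.9%). In K-LM 2 of 4 were (Sbsn 4.05 and Krt17 3.79, against 4.1%). The summed level of these 10 markers ran from -0.51 to -0.30 at P0, 0.43 to 0.92 at KPT P6, 1.37 to 1.99 at T-LM P6 and 2.01 to 2.16 at K-LM P6, and its part in the Krt14 result was not tested.

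The members with enough detected samples differed in which genes ran most like them. Over the 65 RNA samples and 11459 genes, the highest Pearson correlations of Krt7 were with Mal2 (0.93), Lsr (0.92) and Mal (0.91). Lsr at P6 averaged -3.20 ± 0.47 in T-LM (n = 4) and -5.44 ± 0.36 in KPT (n = 5), and was not well above background in K-LM. Krt7 at P6 was likewise highest in T-LM and not well above background in K-LM. Krt19 ran most like Krt42 (0.94), another type I keratin, Srgn (0.85), a proteoglycan of secretory granules, and Rac2 (0.84), the hematopoietic Rac GTPase. Krt20 ran most like Uox (0.86), urate oxidase, then Pdgfrl (0.80) and Pdlim2 (0.79). For Krt18 these genes were Gcat (0.72), Fxyd2 (0.71), a sodium pump subunit of the kidney, and Kyat3 (0.69). For Krt80 they were Mvp (0.83), Slc44a2 (0.80) and Jak3 (0.79), and for Krt23 Acsbg1 (0.73), Serinc2 (0.71) and Dnajc12 (0.70). Among the members themselves, Krt19 and Krt20 had a correlation of 0.67, Krt7 and Krt23 of 0.53, and Krt7 and Krt19, partners in many ducts, of 0.31. These correlations are descriptions, since the samples share passages, routes, slides and parental cells.

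Keratins outside the list were also called higher. Of the 44 other keratins on the array, 2 of 9 tested were called higher at P6 than at P0 for KPT (3.4% of all probes). The counts were 4 of 10 for T-LM (5.9%) and 4 of 10 for K-LM (4.1%), and none were called lower. Krt17, a type I chain of stressed and appendage epithelium, changed by 2.44, 3.72 and 3.79 in KPT, T-LM and K-LM. Krt42 changed by 2.36, 4.59 and 4.52, although its probe may share sequence with related type I genes and its identity is uncertain. Krt13, a chain of stratified mucosa, was called in T-LM (1.89) and K-LM (2.21), Krt79 in T-LM (1.74) and Krt16 in K-LM (1.25). From P3 to P6, 0 of 9, 4 of 10 and 1 of 10 were called (0.715%, 7% and 5.88% of all probes).

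Of 21 desmosome and hemidesmosome genes, which anchor keratin filaments, 1 of 11 tested was called higher and 1 lower at P6 against P0 for KPT, 3 of 11 higher for T-LM and 1 of 12 higher for K-LM. Over all probes tested, 3.4%, 5.9% and 4.1% were called higher in these comparisons. Counts of 1 are not read as a result about these genes. Itgb4, the hemidesmosomal integrin chain, was higher in all 3 routes (1.85, 1.84 and 2.00), its partner Itga6 in T-LM (3.40), the desmosomal protein Perp in T-LM (3.40), and the plakin Ppl was lower in KPT (-1.62). Of 13 non-keratin intermediate filament genes, 6 to 7 were tested and 0 were called by limma in any of the 19 comparisons, with 0 to 3 at an unadjusted p under 0.05. Of 19 epithelial transcription and splicing factors, 2, 3 and 3 were called higher at P6 than at P0 in KPT, T-LM and K-LM (3.4%, 5.9% and 4.1% of all probes). Esrp1, an epithelial splicing regulator, changed by 4.11, 4.01 and 3.10, and Grhl2, an activator of epithelial junction genes, by 2.41, 2.47 and 2.32. Elf3 was called in T-LM (1.92) and Klf5 in K-LM (1.61).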

How the data were processed

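RNA was labelled with Cy5 and hybridised by the authors to Agilent arrays, and the deposited scanner files give spot intensity values that the scanner software (version 11.0.1.1 on 62 arrays, 12.0.2.2 on the 8 arrays of the late slide) had background-subtracted. A deposited value table of the series, in log2 units, matched quantile-normalised raw median intensity within 0.1055. It was used as an alternative. From the scanner files, processed intensities were taken to log2 and scaled to the 75th percentile of the array. For each gene the probe with the highest mean level was used. A probe was tested if well above background on 2 or more arrays of the fit, with limma 3.58.1 (lmFit and eBayes, two-sided, R 4.3.3), with Benjamini-Hochberg adjustment over all probes and a threshold of 0.01. Passages were compared in 1 fit per route over P0 and P2 to P6, with P1 added for its own comparisons. Fits with K-LM P6 included repeat arrays and modelled the late slide as a covariate, and each RNA as a random effect (duplicateCorrelation on 4000 probes, statmod 1.5.0). The script for these fits was tested on simulated data. Dim groups were bounded by the lowest signal of probes well above background. Members, gene lists and tests were chosen with earlier results of these data known. All 9 members are named, as are the 3 genes that correlate best with each member detected in at least 10 samples, and up to 4 called genes of each list by size of change. The genes most like Krt8 and 1 renal marker are not reported here. Promoter windows are from RefSeq. Precision is limited by the number of arrays.

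Alternatives covered scaling, background correction, filters, a floor under dim signals, slide terms, an RNA index, samples in the fit, the replicate block and leaving out each sample.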

Additional observations from a re-analysis of the deposited data

Results flagged for a closer look

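Krt14 in T-LM P1 replicate 2 stood apart from the other samples of its group, at -6.23 against -8.28 to -7.73 (log2 level). The array of this sample had 55.1% of all probes well above background, against at most 41.4% on any other array, and Krt7, Krt23, Krt5 and Cdh1 were among them. Krt19 in T-LM P4 replicate 2 read -1.84, whereas the other samples of its group lay between -2.82 and -2.73. These were the 2 samples far from their group among 65 combinations of a member and a group, and chance gives about 1 in 20.

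The change from P3 to P6 differed between routes in 3 tests of the difference itself by limma. For Krt7 it was larger in T-LM than in KPT by 3.53 and smaller in K-LM than in T-LM (-4.43). For Krt20 it was larger in K-LM than in KPT by 2.82. The RNA index (long minus ribosomal protein mRNAs) ran lower at P3 than at P6 in KPT, and its lowest values in T-LM and K-LM were at P3 rather than P6. With this index as a covariate the Krt7 differences were 3.43 and -4.37 and the Krt20 difference 2.76, all called (limma adjusted p = 1.7e-05, 4.81e-07 and 0.00277). With the slide as a fixed term, the Krt20 difference of 2.64 was no longer called (adjusted p = 0.0149).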

How the results depend on the processing

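In all, 391 alternatives to the counts of called keratin genes were run, 171 of them leaving out 1 sample. Using the mean over the probes of a gene moved none of these counts by over 1.5 times. This is no check on the members' own levels, since every member except Krt5 has a single probe and keeps its value. Only the other genes in the fit could move a call, and these values are included in the tallies below. Of 39 member results that passed the test, 22 passed under every alternative run for them. Over the 753 values of these results, 651 stayed called in the same direction, 96 lost the call and 6 reversed. The reversed values all came from the floor under dim signals: Krt23 in KPT P6 against P0 (-0.67), Krt14 (-0.76) and Krt23 (-0.24) in T-LM P6 against P0, Krt7 in K-LM P6 against P0 (-0.19) and against P3 (-0.24), and Krt14 in T-LM P6 against KPT P6 (-0.16). The floor raises every signal below the 5th percentile of the probes well above background on its array to that percentile. After scaling this floor differs between arrays, so that floored members have no order under it. A reversed sign can thus reflect a difference between array floors.

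Counts that moved are given here after the count as reported. T-LM P6 against P0 (5) gave 3 with the floor, 3 with detection throughout 1 compared group and 3 with the slide as a fixed term. K-LM P6 against P0 (3) gave 5 with only the groups compared and 5 on the late slide only. KPT P6 against P3 (0) gave 2 with only the groups compared. K-LM P6 against P3 (3) gave 1 with the deposited series values. KPT P1 against P0 (2) gave 0 with the floor and 0 with only the groups compared. T-LM P1 against P0 (2) gave 0 with the floor, 1 with detection throughout 1 group, 0 with only the groups compared and 0 with the slide term. KPT P6 against P1 (0) gave 1 with the percentile over all probes, 1 with normexp, 1 with the series values and 1 with the slide term. T-LM against KPT gave 1 at P6 (3) with the slide term, and 2 at P5 (1) with normexp or the series values. K-LM P5 against KPT P5 (2) gave 1 with the percentile over all probes, without a filter and with the slide term. K-LM P5 against T-LM P5 (1) gave 0 with the slide term and 0 with the RNA index. For the difference in the P3 to P6 change, T-LM against KPT (1) gave 2 with only the groups compared, K-LM against KPT (1) gave 0 with only the groups compared and 0 with the slide term, and K-LM against T-LM (1) gave 2 with normexp, the series values, the RNA index and no late slide term. The cause was not tested in each case. The share of all probes called under each alternative is not given. These counts, those from leaving out 1 sample and those with the replicate block are thus not read as a result about the keratins.

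Leaving out 1 sample at a time gave 2 to 3 members for KPT, 3 to 5 for T-LM and 2 to 2 for K-LM at P6 against P0, then 0 to 0, 4 to 4 and 1 to 3 at P6 against P3. It gave 0 to 2 for KPT and 0 to 3 for T-LM at P1 against P0, and 0 to 1 and 2 to 4 at P6 against P1. At P6 it gave 2 to 3 for T-LM against KPT, 2 to 2 for K-LM against KPT and 2 to 2 for K-LM against T-LM, and at P5 1 to 1, 1 to 3 and 0 to 2. For the differences in the P3 to P6 change it gave 1 to 1 for T-LM against KPT, 0 to 1 for K-LM against KPT and 1 to 2 for K-LM against T-LM.

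The samples of 2 groups share replicate numbers but nothing in the labels pairs them. In no comparison did every same-numbered pair correlate above 0.1 (for K-LM P6 and P3 from 0.012 to 0.218). Single pairs reached higher values, the highest in T-LM P5 against KPT P5, where they ran from -0.024 to 0.708. With the replicate block, the counts were 2, 4 and 2 at P6 against P0 for KPT, T-LM and K-LM, 0, 4 and 1 at P6 against P3, 1 and 2 at P1 against P0, 0 and 2 at P6 against P1, 3, 2 and 2 between routes at P6, 1, 1 and 1 at P5, and 1, 0 and 1 for the differences in change.

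Krt5, Krt14 and Krt23 were well above background in 5, 4 and 23 of the 65 samples, which limits what can be said of their levels elsewhere.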
